A study of Mus musculus with 23 samples.

Results

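Macrophages grown from the bone marrow of wild-type C57BL/6 mice were compared after 20 h and after 5 h in stearic acid (SA), a saturated fatty acid with a long chain. The comparison takes the 4 arrays titled as SA at 20 h and the 4 titled as SA at 5 h, 8 of the 23 arrays of the study, and covers every gene with a probe set of a single gene symbol. SA was given at 250 µM in a complex with fatty acid-free, low-endotoxin bovine serum albumin (BSA) at a molar ratio of 2 to 1. Cells had matured for 6 days in the growth factor M-CSF at 10 ng/mL and entered treatment 1 to 3 days after M-CSF was taken away, which holds for both groups and all others. A 20 h vehicle was not analysed here, so the length of exposure to SA and the length of culture cannot be told apart. Beside the SA arrays stand 4 arrays at 5 h and 4 at 20 h of oleic acid (OA), a fatty acid of the same chain length with a double bond, at the same dose and on the same carrier. Vehicle, BSA alone at 125 µM, has 3 arrays, dated 5 h in the sample labels and 4 h in the series text. Lipopolysaccharide, the remaining group, enters only the estimate of spread.

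Saturated fatty acids are known to disturb the membrane of the endoplasmic reticulum (ER), the compartment in which secreted and membrane proteins are folded. The unfolded protein response then acts through 3 sensors: IRE1, which splices the mRNA of the transcription factor XBP1, ATF6, which raises chaperones, and PERK, which favours translation of ATF4 and its target CHOP. In macrophages such acids are also known to engage inflammatory signalling through NF-kB and the NLRP3 inflammasome, and OA is known as the less toxic of the pair.

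Values are log2 expression per probe set as deposited, made by robust multi-array averaging (RMA), so a difference of 1 is a 2-fold change. The 23 array medians lay between 3.98 and 4.12, and genes near or below that band are not shown to lie above background. Replicate 2 of 20 h SA stood apart, with an SD of its gene deviations of 0.215 against 0.153 to 0.161 on the other arrays of its group. The labels speak of replicate wells and the series design of biological replicates, so the spread behind every p-value is that among these samples and may be technical. The macrophage label was borne by the markers: the mean level of 28 macrophage genes was 8.56 to 8.61 on the 5 h arrays and 8.22 to 8.30 on the 20 h arrays. Of these 28 genes, 1 had a group mean below the highest array median at each time. The number of arrays limits the precision, with a median standard error (SE) of 0.12 for a log2 change.

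Between 5 h and 20 h of SA, genes for folding and export of proteins through the ER rose. Genes for mitosis, inflammatory chemokines, NF-kB feedback, and sterol synthesis and uptake fell. Of 19938 genes, 1243 (6.23%) rose and 1309 (6.57%) fell at an adjusted p under 0.05 in limma with Benjamini-Hochberg adjustment. Falls were the larger changes: 252 genes (1.26%) fell at least 2-fold and 57 (0.286%) rose at least 2-fold. All 4 arrays of 20 h lay above all 4 arrays of 5 h in 1524 genes (7.64%), and below them in 1567 (7.86%). The median change over all genes was 0.01. The shares of 6.23% risen and 6.57% fallen are the background for every count of list members between these times with SA.

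Leaving out predicted gene models, the largest rise was in Bex1, a small adaptor protein best known from neurons, with levels of 5.52, 4.53, 5.04 and 5.06 on the 5 h arrays and 7.63, 7.45, 8.11 and 7.53 on the 20 h arrays. All 20 h arrays lay well above the highest 5 h array, and the log2 change was 2.65 ± 0.20 (SE, n = 4 against 4, adjusted p = 5.77e-10). The quinone reductase gene Nqo1 rose by 1.98, from 3.39 ± 0.44 to 5.38 ± 0.34 (SD, n = 4), a start below the array medians, so the size of its change is uncertain. Cdkn1c, an inhibitor of cyclin-dependent kinases, had levels of 5.45, 5.61, 5.96 and 5.83 on the 5 h arrays and 8.16, 7.15, 7.52 and 7.88 on the 20 h arrays. Every 20 h array was above every 5 h array, and the log2 change was 1.96 ± 0.16 (SE). The other large rises were Cox6a2 (1.89), a subunit of cytochrome c oxidase found mainly in heart and skeletal muscle, Derl3 (1.75), a component of ER-associated degradation, and Il1f9 (1.62), a cytokine of the IL-1 family. Chchd10 (1.59) of mitochondria, Cd86 (1.59), a costimulatory ligand of T cells, Fkbp11 (1.57), a prolyl isomerase of the ER, and Clec4n (1.57), the receptor Dectin-2, followed. St6gal1 (1.56), which sialylates glycoproteins, and Slc27a6 (1.54), a fatty acid transport protein, completed the 12. Il1f9, Cd86, Fkbp11 and Slc27a6 had 5 h means at or below the array medians, so the sizes of their rises are uncertain too.

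The largest fall among the same genes was in Gpr84, a receptor for medium-chain fatty acids, with levels of 9.34, 9.41, 9.41 and 9.30 on the 5 h arrays and 5.53, 5.27, 5.32 and 5.53 on the 20 h arrays. The 2 sets of arrays were far apart and each was tight, and the log2 change was -3.95 ± 0.09 (SE, n = 4 against 4, adjusted p = 5.73e-20), or 15.5-fold lower. Ccl2, a chemokine that draws monocytes, had levels of 9.05, 9.18, 8.74 and 9.42 on the 5 h arrays and 5.36, 4.99, 5.13 and 5.24 on the 20 h arrays. It fell by 3.92 on the log2 scale, and the neighbouring chemokine genes Ccl7 and Ccl12 fell by 3.88 and 2.38. Ccl7 ended near the array medians and Ccl12 below them, so these sizes are uncertain. Olr1, a receptor for oxidised lipoprotein, fell by 3.55, and Bub1, a kinase of the mitotic checkpoint, by 2.83. The amino acid transporters Slc7a8 and Slc7a2 fell by 2.73 and 2.40. The matrix protein Tgfbi fell by 2.65 and the thiol reductase Glrx by 2.56. The creatine synthesis enzyme Gatm changed by -2.35 and Ctla2a, an inhibitor of cathepsins, by -2.35.

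**Figure D1:**
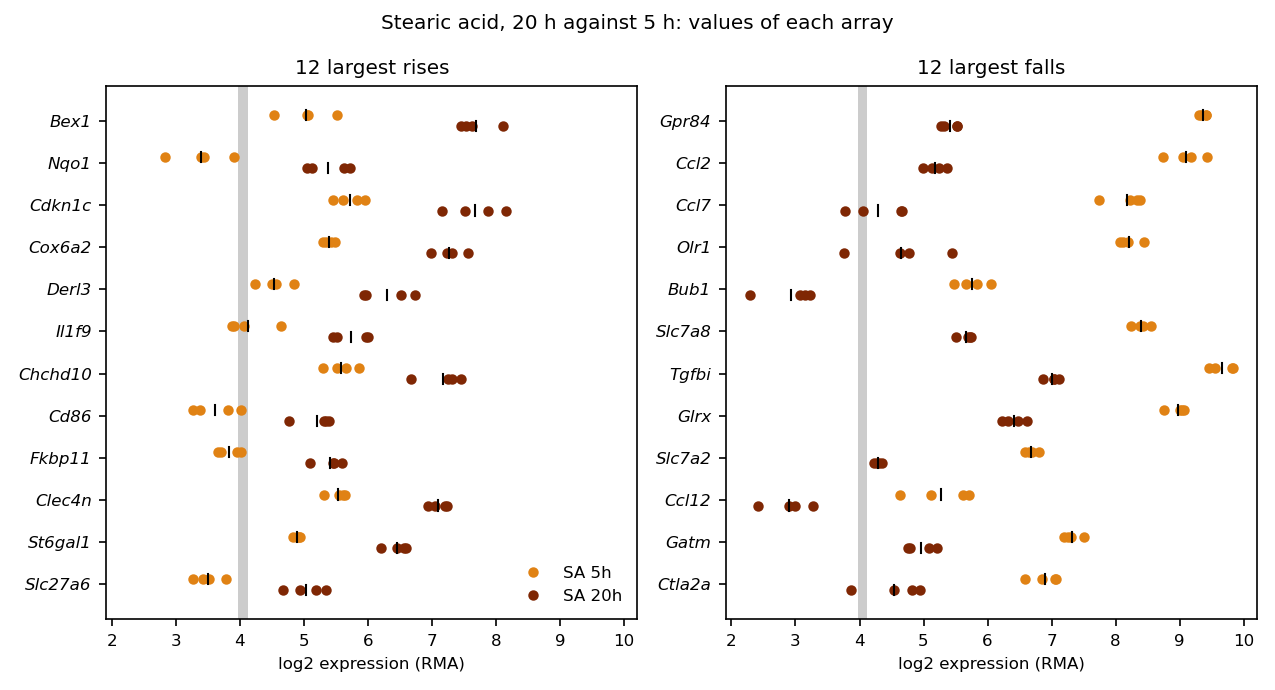
Log2 expression on each array (horizontal axis) of the 12 genes with the largest rise and the 12 with the largest fall between 5 h (orange) and 20 h (brown) of SA. Black ticks are group means (n = 4) and the grey band spans the medians of the 23 arrays. The colours do not overlap for any gene shown, which the choice of these genes required and which is therefore no test. Gpr84 lay between 9.30 and 9.41 at 5 h and between 5.27 and 5.53 at 20 h.

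ER chaperones and folding enzymes rose together. Of 23 measured, 19 rose and none fell against 6.23% and 6.57% of all genes, with a median log2 change of 0.60. In 18 all 20 h arrays lay above all 5 h arrays, beside 7.64% of all genes. Hspa5, the chaperone BiP, had levels of 9.74, 9.68, 9.75 and 9.73 on the 5 h arrays and 10.58, 10.40, 10.64 and 10.51 on the 20 h arrays. The groups did not overlap, and the log2 change was 0.81 ± 0.07 (SE, n = 4 against 4, adjusted p = 1.37e-08). Pdia4 (1.37) and Pdia5 (1.33), protein disulfide isomerases, and Creld2 (1.09), another folding factor, rose further, Pdia5 from a mean below the highest array median. Already at 5 h against vehicle, Hspa5 was higher by 0.37 (adjusted p = 0.00716), whereas the list's median stood at -0.04 with 2 members risen (1.94% of all genes rose and 1.39% fell in that comparison). That comparison shares the 5 h SA arrays.

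Genes of the XBP1 branch and of ER-associated degradation, which returns misfolded proteins to the cytosol for destruction, rose in 13 of 21 cases and fell in none, with a median of 0.35. Dnajb9, a co-chaperone of BiP and a marker target of XBP1, had levels of 7.94, 8.02, 7.92 and 7.93 on the 5 h arrays and 9.36, 9.33, 9.52 and 9.28 on the 20 h arrays. Its arrays at 20 h lay more than 1 log2 unit above those at 5 h, with a log2 change of 1.42 ± 0.10 (SE, adjusted p = 2.14e-10). Derl3 had 4.50, 4.57, 4.23 and 4.84 at 5 h and 6.51, 5.94, 6.74 and 5.97 at 20 h, and Edem2, a lectin of the same route, rose by 0.90. Xbp1 itself rose less, by 0.29 (adjusted p = 0.00824, and 0.0672 with only the compared groups in the fit). The probe set gives the total Xbp1 mRNA, not its splicing. Of 38 genes of the translocon, of glycosylation and of transport between ER and Golgi, 24 rose and none fell, with a median of 0.37, among them the coat subunits Sec24d (1.02) and Sec31a (0.70) and the signal peptidase subunit Spcs2 (0.70).

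The promoters of 2 of these genes are shown because they hold the ER stress response element, the site of ATF6 with NF-Y that was defined in the BiP promoter. The motif searched was CCAAT, then 9 bases of any kind, then CCACG, on both strands of the 250 bases before the RefSeq start (GRCm38.p6), and capitals mark the match. Hspa5 lies at chr2:34771840-34772089 on the plus strand, with the match starting 65 bases before the start site, and Derl3 at chr10:75893148-75893397 on the plus strand, with the match, on the other strand, starting 156 bases before it.
Hspa5: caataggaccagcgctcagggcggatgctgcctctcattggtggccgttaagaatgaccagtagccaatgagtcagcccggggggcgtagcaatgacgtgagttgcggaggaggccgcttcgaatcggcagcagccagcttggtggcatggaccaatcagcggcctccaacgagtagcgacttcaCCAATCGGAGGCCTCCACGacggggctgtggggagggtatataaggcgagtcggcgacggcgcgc
Derl3: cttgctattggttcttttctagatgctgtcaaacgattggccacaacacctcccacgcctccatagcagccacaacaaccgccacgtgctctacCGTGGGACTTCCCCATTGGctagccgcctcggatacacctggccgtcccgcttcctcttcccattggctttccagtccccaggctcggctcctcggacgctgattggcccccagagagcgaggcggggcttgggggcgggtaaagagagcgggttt
Of 21 ER chaperones and folding enzymes with a window, 8 (38.1%) held the motif, and of 18 genes of the XBP1 list 2 (11.1%), against 20 of 15614 tested genes with a window (0.128%). None of 31 translocon and transport genes held it. It was in 8 of 1003 risen genes (0.798%) and in none of 1056 fallen genes. A match is a sequence, not a measured binding site.

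CHOP rose while most of its companions of the ATF4 branch had changed by 5 h. Ddit3, which encodes CHOP, had levels of 7.96, 7.85, 8.19 and 8.11 on the 5 h arrays and 8.91, 8.81, 9.03 and 8.90 on the 20 h arrays, against 6.45, 6.79 and 6.73 with vehicle. It stepped up at each time, with a log2 change of 0.88 ± 0.10 between the times (SE, adjusted p = 3.96e-07) and of 1.37 at 5 h against vehicle. Of 29 stress factors of this branch, 7 rose and 1 fell with a median of 0.12 (2 fell without replicate 1 of 20 h). At 5 h against vehicle 17 had risen, beside 1.94% of all genes, with a median of 0.52. The 2 comparisons share the 5 h arrays. Atf4 changed by 0.12 (adjusted p = 0.446) and Atf3, another factor of the stress response, by -0.17 (adjusted p = 0.247), neither past the test. Trib3, a pseudokinase induced by CHOP, rose by 0.67 although its arrays overlapped, with 4.55, 5.01, 5.75 and 5.27 on the 5 h arrays and 6.00, 5.67, 5.79 and 5.82 on the 20 h arrays, and its adjusted p of 0.00706 became 0.0535 with only the compared groups in the fit. Atf5, a related factor, rose by 0.59. Of 20 genes of amino acid synthesis and tRNA charging, 3 rose and 1 fell, beside 6.23% and 6.57% of all genes (median 0.09). The tRNA synthetases Wars (0.94) and Eprs (0.50) rose and the serine synthesis enzyme Psat1 (-0.68) fell.

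The fallen member of the ATF4 branch list, Jdp2 (-0.53), a repressor of the AP-1 family, is shown because it was the changed member of the 2 lists with the largest change among those whose window holds the core of the amino acid response element. TGATGNAAN was searched on both strands, and the window is chr12:85599166-85599415 on the plus strand, GRCm38.p6, with the match in capitals.
Jdp2: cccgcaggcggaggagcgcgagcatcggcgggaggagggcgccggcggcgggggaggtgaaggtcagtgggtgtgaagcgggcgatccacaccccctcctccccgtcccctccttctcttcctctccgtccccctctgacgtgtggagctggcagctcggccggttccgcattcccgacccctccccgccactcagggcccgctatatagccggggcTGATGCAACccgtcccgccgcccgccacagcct
The core was in 8 of 25 genes of the ATF4 and CHOP list (32.0%) and 3 of 15 of the amino acid list (20.0%), against 487 of 15614 genes (3.12%). Among risen genes it was in 3.19% and among fallen genes in 4.36%.

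Of 23 measured targets of NRF2, the factor that raises antioxidant and detoxifying enzymes, 8 rose and 2 fell, with a median of 0.21. Over all genes 6.23% rose and 6.57% fell, so the falls alone do not set the list apart. Nqo1 had 3.44, 2.83, 3.40 and 3.91 on the 5 h arrays and 5.63, 5.04, 5.12 and 5.72 on the 20 h arrays. All 20 h arrays were higher. Slc7a11, the cystine transporter, had levels of 8.47, 8.46, 8.56 and 8.52 on the 5 h arrays and 8.97, 8.92, 9.07 and 8.83 on the 20 h arrays, a log2 change of 0.45 ± 0.11 (SE, adjusted p = 0.00666). Cbr3, a carbonyl reductase, rose by 0.55, and Mgst1, a microsomal glutathione transferase, by 0.52. Heme oxygenase, Hmox1, fell instead, from 11.40, 11.36, 11.41 and 11.42 at 5 h to 10.82, 10.58, 10.93 and 10.82 at 20 h (-0.61, adjusted p = 7.85e-07), after standing 0.50 above vehicle at 5 h. Glutathione transferases, a family singled out after its values were seen, had 11 of 23 risen and 2 fallen with a median of 0.39 (1 fallen without replicate 1 or 2 of 5 h or replicate 2 of 20 h), led by Gsta3, which rose by 1.26 ± 0.14 (SE) from 5.03 ± 0.14 to 6.29 ± 0.16 (SD, n = 4); probe sets of near-identical members may share signal.

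The promoter of Mgst1 is the one of the changed NRF2 list members with the largest change that holds the core of the antioxidant response element. TGACNNNGC was searched on both strands, the window is chr6:138140277-138140526 on the plus strand, GRCm38.p6, and the match, on the other strand, is in capitals.
Mgst1: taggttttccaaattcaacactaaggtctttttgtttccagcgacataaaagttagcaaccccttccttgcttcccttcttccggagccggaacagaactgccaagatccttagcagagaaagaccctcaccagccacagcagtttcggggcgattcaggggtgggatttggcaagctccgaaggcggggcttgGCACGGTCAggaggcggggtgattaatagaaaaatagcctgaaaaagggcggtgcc
The core was in 5 of 18 NRF2 list genes (27.8%), in 12.5% of all tested genes with a window, in 15.7% of risen genes and in 13.8% of fallen genes.

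Inflammatory genes were lower at 20 h. Of 36 cytokines, chemokines and mediators, 22 fell and 1 rose, with a median log2 change of -0.73. Tnf, the prototype macrophage cytokine, had levels of 10.27, 10.33, 10.45 and 10.40 on the 5 h arrays and 8.56, 8.69, 8.66 and 8.48 on the 20 h arrays. The groups were far apart, with a log2 change of -1.76 ± 0.08 (SE, adjusted p = 5.14e-14). Il1b fell by 2.22, ending below the array medians. Cxcl2, a neutrophil chemokine, fell by 1.07 from 10.59, 10.69, 10.79 and 10.80 to 9.64, 9.58, 9.87 and 9.49, and Ptgs2, the inducible cyclooxygenase, by 1.16. Acod1, which makes itaconate, fell by 1.59. At 5 h against vehicle, which shares the 5 h arrays, Cxcl2 stood 1.93 higher, Ptgs2 1.81, Acod1 1.61 and Tnf 0.78, whereas Ccl2 stood at 0.05 (adjusted p = 0.951). Il6 was below the array medians at both times, and its change of 0.22 did not pass the test (adjusted p = 0.494).

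Of 27 genes of the NF-kB pathway and its feedback, 24 fell and none rose, with a median of -0.73. In 26 all 20 h arrays lay below all 5 h arrays, beside 7.86% of all genes. At 5 h against vehicle 15 of them had risen, beside 1.94% of all genes, with a median of 0.46. That comparison shares the 5 h SA arrays with the falls. At 20 h of SA the list's median stood at -0.47 against the 5 h vehicle, where the median over all genes was 0.03. The latter comparison combines exposure and culture time. Icam1, an adhesion molecule, had levels of 7.96, 8.05, 8.28 and 8.18 on the 5 h arrays and 5.92, 5.79, 5.69 and 5.96 on the 20 h arrays and a log2 change of -2.27 ± 0.10 (SE, adjusted p = 6.37e-14). The receptors Cd40 (-2.16) and Tlr2 (-1.96) also fell. Of 32 immediate early genes and MAP kinase feedback genes, 8 fell and 1 rose (median -0.02). No member rose when replicate 1 or 4 of 5 h or replicate 1, 2 or 3 of 20 h was left out. Those that fell included Fos (-1.32), a subunit of AP-1, the Ras inhibitor Spred1 (-1.05) and the phosphatase Dusp1 (-0.70).

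Interferon-stimulated genes fell in 19 of 29 cases and rose in 2, with a median of -0.50, and 0 to 1 rose when any single SA array was left out. The antiviral GTPases Mx2 and Mx1 fell by 1.77 and 1.22 to levels below the array medians, and Ifit1, which binds viral RNA, fell by 1.29, with 7.03, 7.03, 6.70 and 6.88 at 5 h and 5.82, 5.72, 4.93 and 6.02 at 20 h. Replicate 3 of 20 h was the lowest of its group, and the groups did not overlap. Of 18 genes of inflammasomes, caspases and pyroptosis, 5 rose and 5 fell (median -0.08). Nlrp3, the sensor of the inflammasome, had levels of 7.53, 7.28, 7.56 and 7.63 on the 5 h arrays and 5.25, 5.07, 5.11 and 5.20 on the 20 h arrays. It was the largest change of its list, at -2.35 ± 0.09 (SE, adjusted p = 1.08e-15), while the channel Panx1 rose by 0.72 and Nlrp1b fell by 0.63. Without replicate 1 or 2 of 5 h or replicate 1 of 20 h, 3 genes of that list rose. Of 12 genes of MHC class II and costimulation, 8 fell and 1 rose (median -0.49). Cd83 fell by 1.57 and Cd40 as above, and Cd86 rose from 3.37, 4.02, 3.81 and 3.27 to 5.39, 4.76, 5.31 and 5.35.

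Genes of mitosis fell throughout. All 38 measured genes of mitosis and the spindle fell, with a median of -1.27. In all 38 the 20 h arrays lay below the 5 h arrays, beside 7.86% of all genes. Top2a, the topoisomerase of dividing cells, had levels of 6.94, 6.94, 6.79 and 7.07 on the 5 h arrays and 4.92, 4.66, 4.80 and 5.12 on the 20 h arrays, against 7.38, 7.33 and 7.09 with vehicle at 5 h. The 20 h arrays stood apart from both, with a log2 change of -2.06 ± 0.11 (SE, n = 4 against 4, adjusted p = 5.14e-13). Mki67, the proliferation marker Ki-67, fell by 2.12, Bub1 by 2.83 and Anln, a protein of the cleavage furrow, by 2.19. Of the 38, 20 had a mean below the highest array median at 20 h, against 2 at 5 h, Bub1 and Anln among them, so the sizes of these falls and of the list's median are uncertain. In bulk RNA, fewer cells of a type and less RNA per cell cannot be told apart.

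Of 37 genes of DNA replication, 26 fell and none rose (median -0.52), with the ribonucleotide reductase subunits Rrm2 (-1.86) and Rrm1 (-1.35) and the methylation factor Uhrf1 (-1.17) in front, of which Rrm2 and Uhrf1 ended below the highest array median, as did 9 of the 37. Of 18 cyclins, kinases and inhibitors of the G1 phase, 3 rose and 6 fell (median -0.08). Ccnd1, cyclin D1, had levels of 8.75, 8.87, 8.61 and 8.92 on the 5 h arrays and 6.76, 6.38, 6.24 and 6.63 on the 20 h arrays, a log2 change of -2.29 ± 0.12 (SE, adjusted p = 1.30e-12), and its partner Cdk6 fell by 0.93. Cdkn1c, given above, rose. Replication-dependent histones, a family singled out after its values were seen, had 16 of 27 fallen and 1 risen with a median of -0.47, and none risen without replicate 1, 2 or 4 of 5 h or replicate 4 of 20 h; their near-identical copies cannot be told apart with certainty on arrays. Of 14 genes of the BCL2 family, 3 fell and none rose, beside 6.57% fallen and 6.23% risen over all genes (median 0.08). Without replicate 3 of 5 h, 1 rose. Those that fell were Bcl2l1 (-0.50) and Mcl1 (-0.45), which protect from apoptosis, and Bid (-0.37), which promotes it. Of 19 p53 targets, 2 rose, Phlda3 (0.49) and Polk (0.32), and 1 fell, Plk2 (-0.35), beside 6.23% and 6.57% of all genes (median 0.16), so the counts set the list apart in neither direction. Without replicate 2 of 5 h, 1 rose and 2 fell, and without replicate 3 of 20 h 2 fell. The calls of Bid, Phlda3 and Polk were lost when single arrays were left out: Phlda3 without replicate 2 of 5 h (adjusted p = 0.0653), Polk without replicate 1 of 5 h (0.0653), and Bid without replicate 3 or 4 of 5 h or replicate 2, 3 or 4 of 20 h (0.0695 to 0.136). With only the compared groups in the fit, the adjusted p was 0.0909 for Bid and 0.0525 for Polk. Cdkn1a and Gdf15 were not analysed here.

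The promoter of Mki67 is shown as the member of the mitosis list with the largest fall whose window holds the cell cycle homology region. TTTGAA was searched on both strands of the window chr7:135716380-135716629, minus strand, GRCm38.p6, and 2 matches are in capitals, starting 116 and 98 bases before the start site.
Mki67: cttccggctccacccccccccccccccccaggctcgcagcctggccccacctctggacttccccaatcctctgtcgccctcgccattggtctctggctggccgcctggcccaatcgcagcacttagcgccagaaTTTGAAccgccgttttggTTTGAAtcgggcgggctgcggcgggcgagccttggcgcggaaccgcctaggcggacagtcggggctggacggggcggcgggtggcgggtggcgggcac
The motif was in 11 of 32 mitosis genes with a window (34.4%), in 15.7% of all tested genes with a window and in 15.2% of fallen genes.

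**Figure D2:**
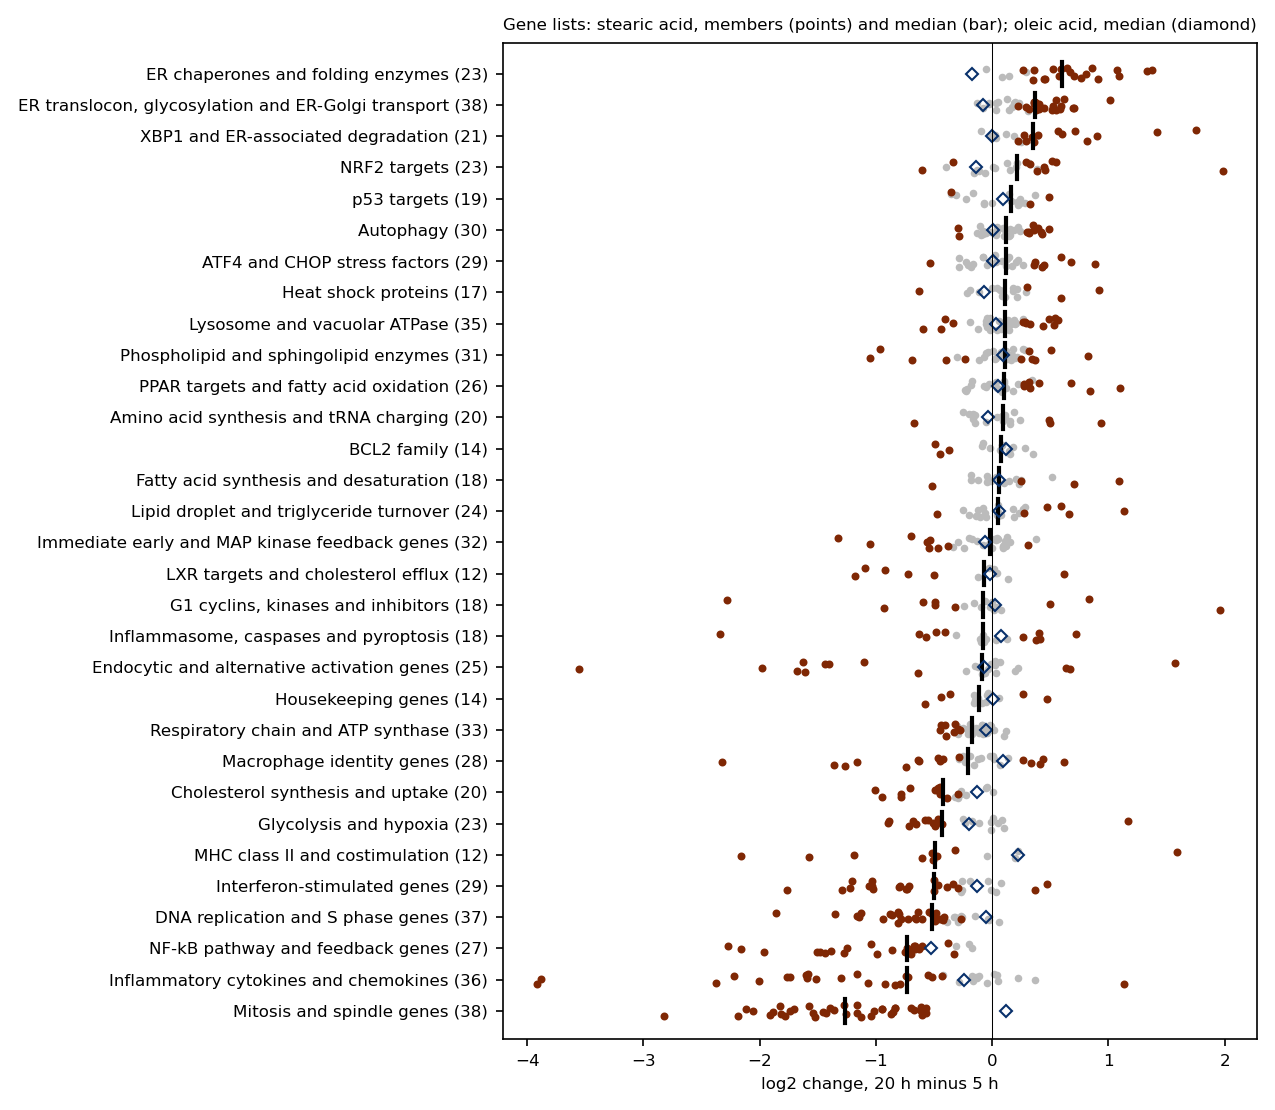
Log2 change between 5 h and 20 h (horizontal axis) of the members of the 31 pathway lists, with the number measured after each name; brown points passed the test with SA and grey points did not, black bars are medians with SA and blue diamonds medians with OA. The median was 0.60 for ER chaperones with SA and -0.17 with OA, and -1.27 for mitosis genes with SA and 0.12 with OA.

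Genes of sterol synthesis and uptake fell. Of 20 measured, 12 fell and none rose, with a median of -0.42. Idi1, an isomerase of the mevalonate pathway, fell by 1.01 and Hsd17b7, a later enzyme, by 0.94. Insig1, which holds the sterol-sensing SREBP complex in the ER and is itself a sterol-regulated gene, had levels of 9.33, 9.39, 9.31 and 9.39 on the 5 h arrays and 8.67, 8.35, 8.73 and 8.54 on the 20 h arrays and a log2 change of -0.78 ± 0.09 (SE, adjusted p = 8.33e-07), having stood 0.88 above vehicle at 5 h. Hmgcs1, which starts the pathway, fell by 0.39 (adjusted p = 0.00277, and 0.0513 with only the compared groups in the fit).

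Genes of other lipid pathways were measured as well. Among 12 targets of the sterol receptor LXR, 5 fell and 1 rose (median -0.07). The cholesterol exporter Abca1 fell from 8.80, 8.68, 8.83 and 8.70 to 7.92, 7.86, 7.74 and 7.79, by 0.92 with no overlap, and the phospholipid transfer protein Pltp and the receptor gene Nr1h3 fell by 1.18 and 1.10. Of 18 genes of fatty acid synthesis, 3 rose and 1 fell, beside 6.23% and 6.57% of all genes (median 0.06). Only 1 rose without replicate 4 of 5 h or replicate 1 of 20 h. Acss2, an acetyl-CoA synthetase, rose by 1.09 and Scd2, a desaturase, fell by 0.51. Scd1, the desaturase that makes OA from SA, had low levels of 3.75, 3.93, 3.11 and 3.28 on the 5 h arrays and 4.66, 3.78, 4.20 and 4.23 on the 20 h arrays, overlapping, with a log2 change of 0.70 (adjusted p = 0.0146) that missed the threshold when replicate 3 or 4 of 5 h or replicate 1 of 20 h was left out (0.0535 to 0.0752).

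Of 26 PPAR targets and genes of fatty acid oxidation, 8 rose and none fell (median 0.10): the thioesterase Acot2 by 1.10, the secreted lipase inhibitor Angptl4 by 0.84 and the receptor Pparg by 0.68. Pdk4, a PPAR target with low signal here, changed by 0.22 (adjusted p = 0.431). Of 24 genes of lipid droplets, 5 rose and 1 fell (median 0.05). The lipase Mgll rose by 1.13 from 7.04, 6.80, 6.92 and 7.13 to 8.11, 8.10, 8.07 and 8.16, the droplet coat Plin3 by 0.66, the lipase Pnpla2 by 0.60 and Plin2, the coat most used as a droplet marker, by 0.27. The adjusted p of Plin2, 0.0174, became 0.0505 to 0.0662 without replicate 1 of 5 h or replicate 1 or 3 of 20 h, and 0.108 with only the compared groups in the fit. Without replicate 1 of 20 h, 4 PPAR targets and 3 droplet genes rose, and without replicate 1 or 2 of 5 h 5 PPAR targets rose. PPAR targets that fell numbered 1 without replicate 1 of 20 h and 2 without replicate 4 of 20 h. With only the compared groups in the fit, 4 PPAR targets rose. Of 31 phospholipid and sphingolipid enzymes, 6 rose and 5 fell (median 0.11), and 3 rose and 3 fell with only the compared groups in the fit. The ceramide synthase Cers6 fell by 1.05, Lpcat2 by 0.97, and the sphingomyelin synthase Sgms2 rose by 0.83.

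Genes that define macrophages changed as well. Of 28 identity genes, 11 fell and 5 rose, with a median of -0.21, and 3 rose with only the compared groups in the fit. Cx3cr1, the fractalkine receptor, had levels of 7.27, 7.23, 7.48 and 7.37 on the 5 h arrays and 4.76, 5.47, 4.77 and 5.05 on the 20 h arrays, a log2 change of -2.33 ± 0.12 (SE, adjusted p = 3.23e-13), and a log2 difference from vehicle of -1.02 already at 5 h. Csf1r, the receptor of M-CSF, fell by 0.63, the lipopolysaccharide co-receptor Cd14 by 1.27 and Aif1 by 1.36. Of 25 endocytic and alternative activation genes, 9 fell and 3 rose (median -0.09). Dab2, a clathrin adaptor, had 9.03, 9.24, 8.60 and 9.11 on the 5 h arrays and 7.27, 6.74, 6.78 and 7.28 on the 20 h arrays, a log2 change of -1.98 ± 0.15 (SE), and the scavenger receptor Stab1 fell by 1.68. Clec4e, the receptor Mincle, fell by 0.64 and Clec4n rose. The 3 chains of complement C1q, a family singled out after its values were seen, changed by -2.17 (C1qa), -1.73 (C1qb) and -1.28 (C1qc), each past the test.

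Among organelle and energy genes, 12 of 23 of glycolysis and hypoxia fell. Of 35 genes of the lysosome, 9 rose and 4 fell (median 0.11; 5 rose with only the compared groups in the fit), with the calcium channel Mcoln1 (0.57) risen and the galactosidase Glb1 (-0.60) fallen. Of 30 autophagy genes, 9 rose and 2 fell (median 0.12), led by Atg7 (0.49), and 5 rose without replicate 2 of 5 h or replicate 1 of 20 h. Without replicate 1 or 3 of 5 h or replicate 4 of 20 h, 1 autophagy gene fell, and with only the compared groups in the fit 4 rose and none fell. Of the 23 genes of glycolysis and hypoxia, 12 fell and 1 rose (median -0.43): Ldha, lactate dehydrogenase, fell by 0.89 and Ndrg1 rose by 1.16. Of 33 subunits of the respiratory chain and ATP synthase, 8 fell and none rose (median -0.17), but without replicate 2 of 20 h SA 3 fell (median -0.12), without replicate 2 or 4 of 5 h 5 fell, and with only the compared groups in the fit 2 fell. Of 17 heat shock proteins, 3 rose and 1 fell, beside 6.23% and 6.57% of all genes (median 0.11), with Hspa4l (0.92) in front. Of 14 genes used as housekeeping controls, 2 rose and 3 fell, beside the same shares of all genes (median -0.11). Of these controls, 1 rose without replicate 1 or 2 of 5 h or replicate 1, 2 or 3 of 20 h. With a variance trend, 6 fell.

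The same interval with OA shares no array with the SA comparison and was set beside it. With OA, 515 genes (2.58%) rose and 359 (1.8%) fell. Of the genes that rose with SA, 203 also rose with OA, which is 16.3% of the SA list and 39.4% of the OA list. Of those that fell with SA, 246 also fell with OA, 18.8% of the SA list and 68.5% of the OA list. The change with SA minus the change with OA was tested in the same model: 315 genes (1.58%) were higher and 677 (3.4%) lower. Among the 1243 risen genes the rise exceeded the OA change in 267, was below it in 3, and the difference was not called in 973. Among the 1309 fallen genes the fall exceeded the OA change in 555, the difference went the other way in 6, and was not called in 748. These genes were picked by the SA change, which is part of the difference.

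Many ER genes and most mitosis genes changed differently with the 2 acids. ER chaperones changed with a median of -0.17 with OA, none rose and 1 fell, and 18 of 23 differed from the SA change. In the XBP1 list the SA change was above the OA change in 8 of 21 genes, beside 1.58% of all genes. The same held for 19 of 38 genes of the translocon and transport list. For the other genes of these 2 lists the difference was not called. Hspa5 had 9.44, 9.39, 9.42 and 9.39 at 5 h and 9.22, 9.23, 9.24 and 9.25 at 20 h of OA, a difference of the changes of 0.98 (adjusted p = 5.60e-07), and Dnajb9 a difference of 1.34. Ddit3 rose by 0.44 with OA, and its difference of 0.44 (95% interval 0.15 to 0.73) did not pass the test (adjusted p = 0.0796). None of 38 mitosis genes passed the test with OA (median 0.12), and 35 differed. Top2a had 7.37, 6.98, 7.25 and 7.35 at 5 h and 7.42, 7.50, 7.41 and 7.18 at 20 h of OA, and its changes differed by -2.20 (adjusted p = 8.98e-10). Ccl2 fell by 0.57 with OA (adjusted p = 0.0368) against 3.92 with SA, and Dab2 rose by 0.58. C1q chains did not pass the test with OA, where their median was 0.07.

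Other genes fell or rose with both acids, or changed more with OA. Tnf fell by 1.44 with OA. The difference of the changes was -0.32 (95% interval -0.55 to -0.09, not adjusted for the number of genes) and did not pass the adjusted test. Gpr84 fell by 3.52 with OA, Olr1 by 3.85, with a difference of 0.30 (95% interval -0.34 to 0.93), and Mgll rose by 1.14, with a difference of 0.00 (95% interval -0.34 to 0.33). St6gal1 rose by 1.42 with OA. The NF-kB list fell in 19 of 27 cases with OA (median -0.53), and 9 of its genes fell further with SA. Of the 36 cytokines, chemokines and mediators, 14 fell and none rose with OA (median -0.24). The SA change was below the OA change in 14 of them and above it in 3. Interferon-stimulated genes fell in 6 of 29 cases and rose in none with OA (median -0.13). Their SA change was below the OA change in 9 and above it in none. With OA, 4 of 26 PPAR targets rose and none fell (median 0.05), and in none was a difference between the acids called. Of 20 genes of sterol synthesis and uptake, 2 fell and none rose with OA (median -0.13). The SA change was below the OA change in 5 of these and above it in none. Of 23 genes of glycolysis and hypoxia, 6 fell and 1 rose with OA (median -0.2), and the SA change was below it in 3 and above it in 1. Clec4e fell by 2.71 with OA, 2.07 further than with SA, and Acod1 by 2.73, 1.14 further. Cxcl2 differed by 0.63 in the same sense. Slc7a11 fell by 1.49 with OA, from 6.95, 6.95, 6.95 and 6.80 to 5.49, 5.54, 4.99 and 5.64, while it rose with SA, a difference of 1.94 ± 0.16 (SE, adjusted p = 9.91e-09).

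**Figure D3:**
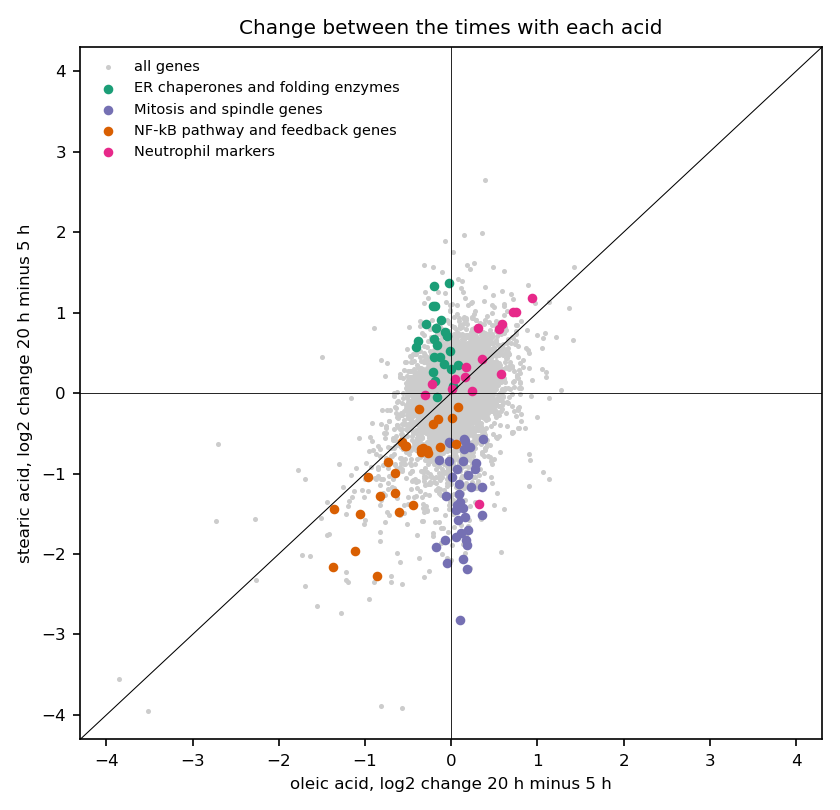
Log2 change between 5 h and 20 h with OA (horizontal axis) and with SA (vertical axis) for the 19938 genes (grey) and 4 lists in colour; the diagonal marks equal change. ER chaperones lie above it and mitosis genes below it near 0 on the OA axis, while NF-kB genes fell with both acids (medians -0.73 and -0.53).

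**Figure D4:**
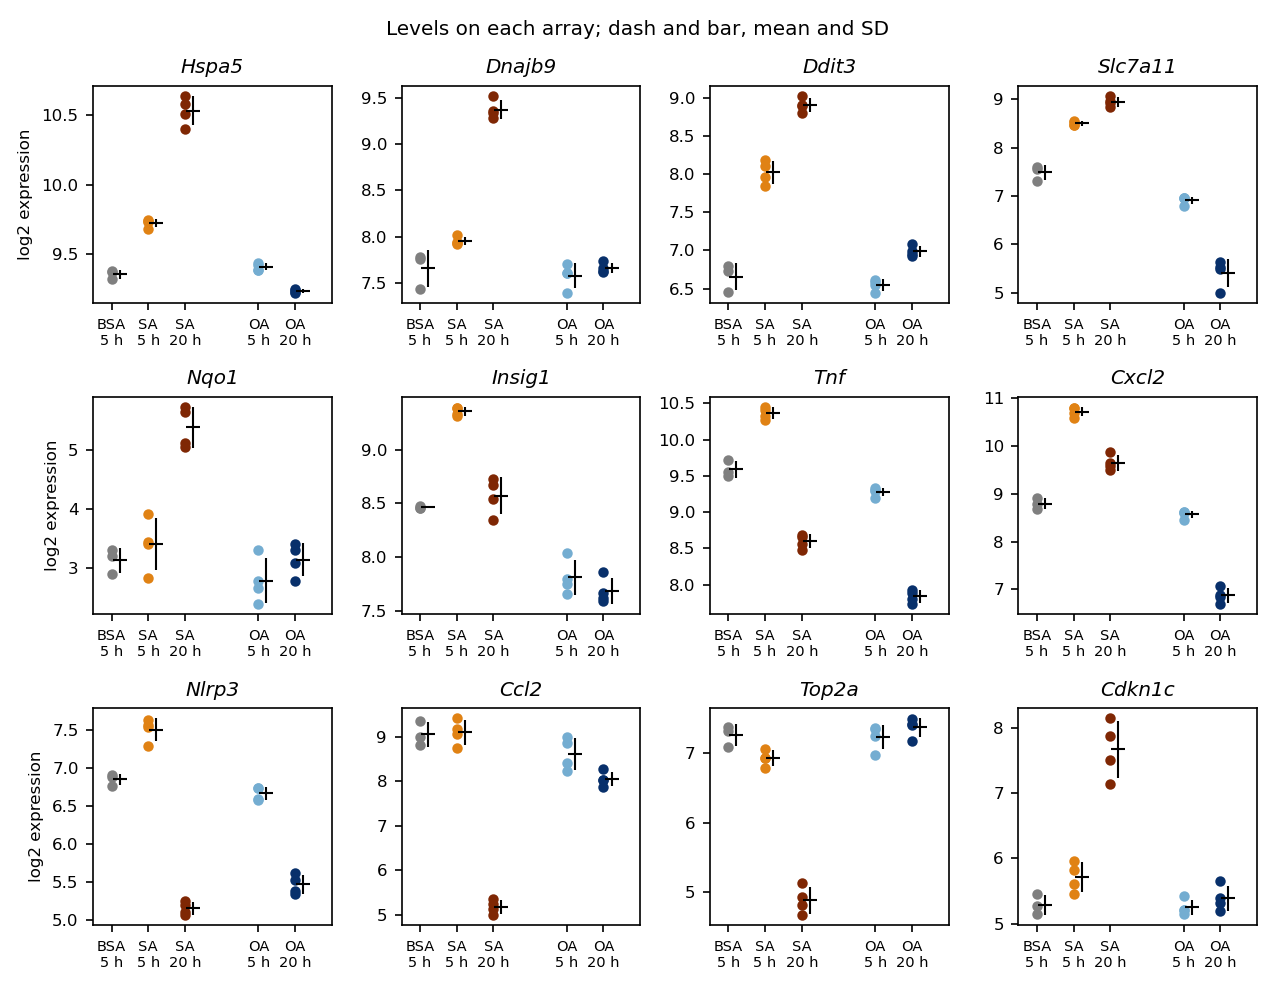
Log2 expression on each array of 12 genes in vehicle (BSA) at 5 h, SA and OA at 5 h and 20 h; dashes and bars are the mean and SD of 3 vehicle arrays or 4 arrays of each other group, and each panel has its own vertical scale. Hspa5 reached 10.40 to 10.64 at 20 h of SA, above all other arrays shown, and Tnf was lower at 20 h than at 5 h with either acid.

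Most markers of other cell types lay below the array medians, apart from neutrophil markers. Of 16 neutrophil markers, 8 rose and 1 fell with SA (median 0.28), and 4 rose with OA (median 0.31). Their mean level was 5.73 to 6.12 on the 5 h SA arrays, 6.19 to 6.44 at 20 h, 6.06 to 6.25 at 5 h of OA, 6.42 to 6.53 at 20 h of OA and 6.08 to 6.30 with vehicle. Ltf, lactoferrin of neutrophil granules, had 6.24, 5.58, 5.88 and 6.22 on the 5 h arrays and 7.03, 6.78, 7.23 and 6.93 on the 20 h arrays, a log2 change of 1.01 ± 0.15 (SE, adjusted p = 1.64e-05). Mmp8 rose by 1.18, Lcn2 by 0.86, Ngp by 0.79, S100a9 by 0.43 and S100a8 by 0.33. Retnlg and Cxcr2, of low signal, rose by 1.01 and 0.81. The call of Cxcr2 was lost without replicate 1 or 2 of 5 h or replicate 1 or 4 of 20 h (adjusted p = 0.0799 to 0.225), and with only the compared groups in the fit those of Cxcr2 (0.113) and S100a9 (0.0531) were lost. Mmp9 fell by 1.38, against the direction of the other called markers. The neutrophil proteases Elane (-0.03), Prtn3 (0.18) and Ctsg (0.12) did not pass the test, and 5 of the 16 markers at 5 h and 4 at 20 h had a mean below the highest array median. The part of such cells in the changes above was not tested.

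Of 12 dendritic cell markers, 9 mast cell and basophil markers and 13 stromal and adipocyte markers, none passed the test (medians 0.14, 0.00 and 0.06), against 12.8% of all genes in either direction. A mast cell marker fell without replicate 2 or 3 of 20 h, and 1 stromal marker rose without replicate 3 of 5 h or replicate 2 of 20 h. At 20 h 9 of the 12, 8 of the 9 and 10 of the 13 had a mean below the highest array median. Of 13 lymphocyte markers, 1 rose, Cd3g, at levels below the array medians and lost without replicate 2 of 5 h (adjusted p = 0.0684) or with only the compared groups in the fit (0.0739), and the list's mean level was 2.92 to 3.06 at 5 h and 2.91 to 3.11 at 20 h. Of 7 erythroid and megakaryocyte markers, Tfrc (-0.73), the transferrin receptor of many dividing cells, and Pf4 (-0.96) fell (median 0.05).

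**Figure D5:**
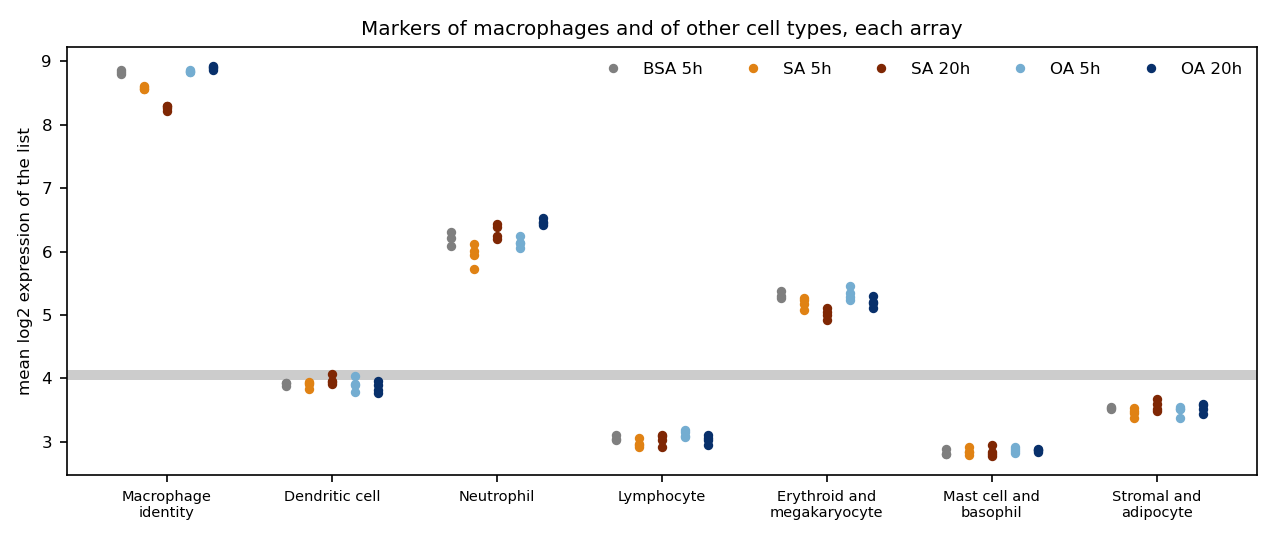
Mean log2 expression of macrophage identity genes and of markers of 6 other cell types (groups along the horizontal axis) on each array of 5 groups; the grey band spans the medians of the 23 arrays. Macrophage genes lay at 8.22 to 8.30 at 20 h of SA and at 8.87 to 8.92 at 20 h of OA, and neutrophil markers were higher at 20 h than at 5 h with either acid.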

How the data were processed

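The authors deposited log2 expression values for 35556 probe sets on 23 arrays, and the submitters' processing notes name RMA for them, beside limma without its role; versions and genome build are not given in the sources used here. Per the labels' protocols, amplification started from about 10 ng of RNA. Of these probe sets, 21789 have 1 gene symbol, 1621 several, and 12146 none in the probe table. The probe set with the highest mean was used for 999 genes with more than 1, leaving 19938 genes.

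A linear model with 6 group means was fitted with limma 3.58.1 in R 4.3.3 (lmFit and eBayes); p-values are two-sided, with Benjamini-Hochberg adjustment over all genes and calls under 0.05. The fit was tested on simulated data with independent normal noise and few changed genes. It recovered 61.2% of log2 changes of 0.5, 98.5% of changes of 1 and 100% of changes of 2. Of the calls, 2.81% fell on unchanged genes. An array that stands apart, or as many changed genes as were called here, was not simulated. The groups, the 37 gene lists (31 pathway, 6 cell type; 820 of 886 entries measured) and the members were chosen with earlier results of these data known. Named genes were the 12 largest rises and 12 largest falls whose arrays do not overlap, leaving out predicted or unnamed gene models, up to 3 changed members per pathway list, anchor genes, and promoters holding a searched motif. The members of cell type lists and of families that are named were chosen after their values were seen. Same-numbered SA replicates correlated at -0.02 to 0.10, so numbers were not taken as pairs. Promoters are from RefSeq (GRCm38.p6). Windows on chr18 and windows not of full length were left out, which left 19177 windows for 15614 of 19938 genes. A gene with several windows counted as holding a motif if any of them did. The window with the most matches is the one printed. Python 3.11.15 with matplotlib 3.10.9 drew the figures. Alternatives were variance trend, centring, quantile normalization, array weights, a filter on dim genes, probe set choice, a replicate block, a fit of only the compared groups, and each array left out in turn.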

Additional observations from a re-analysis of the deposited data

Results flagged for a closer look

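In groups of 4 arrays, 1 array standing far from the other 3 by Dixon's criterion was looked for among 340 groups, and 24 were found; chance gives about 1 in 20, or 17. Replicate 2 of 20 h was the lowest for Cd86 (4.76, others 5.31 to 5.39), Bub1 (2.29, others 3.07 to 3.22), Spcs2 (8.28, others 8.72 to 8.77), Hsd17b7 (5.18, others 5.41 to 5.45), Plin3 (7.48, others 7.82 to 7.88), Mcl1 (9.07, others 9.33 to 9.34), Cd83 (6.15, others 6.67 to 6.75) and S100a9 (10.88, others 11.21 to 11.25), in log2 expression with SA. Replicate 2 of 5 h was the lowest for Angptl4 (4.73, others 4.91 to 4.92) and Pltp (9.26, others 9.46 to 9.50). Replicate 1 of 5 h was the lowest for Polk (5.57, others 5.74 to 5.77) and Plin2 (10.16, others 10.25 to 10.26). Replicate 2 of 20 h was the highest for Panx1 (7.84, others 7.62 to 7.66). Replicate 3 of 20 h was the lowest for Cdk6 (7.27, others 7.45 to 7.47). Replicate 3 of 5 h was the highest for Aif1 (7.67, others 7.29 to 7.34). Replicate 1 of 20 h was the lowest for Elane (3.26, others 3.78 to 3.82).

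The same held for the median difference of a list's members from the 5 h mean on single arrays. Replicate 2 of 20 h was the lowest for XBP1 and ER-associated degradation (0.22, others 0.36 to 0.37), ATF4 and CHOP stress factors (-0.04, others 0.16 to 0.20) and Respiratory chain and ATP synthase (-0.40, others -0.12 to -0.08). Replicate 4 of 5 h was the highest for Mitosis and spindle genes (0.10, others -0.05 to -0.03) and Respiratory chain and ATP synthase (0.02, others 0.00 to 0.00). Replicate 3 of 5 h was the highest for LXR targets and cholesterol efflux (0.14, others -0.07 to -0.04). Replicate 4 of 20 h was the highest for Endocytic and alternative activation genes (-0.06, others -0.18 to -0.16). Replicate 2 of 5 h was the highest for Lymphocyte markers (0.07, others -0.06 to -0.04).

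For 90 of 133 named genes, the change between the times differed between the acids by the test of the difference in limma. Over all genes, the difference was above 0 in 1.58% and below 0 in 3.4%. Many of the named genes were picked for their change with SA, which is part of the difference, so the count is no test. The change with SA minus the change with OA was -3.34 in Ccl2, -3.07 in Ccl7, -2.92 in Bub1, -2.56 in Dab2, -2.39 in C1qa, -2.36 in Anln, -2.20 in Top2a, -2.06 in Mki67, -1.97 in Ccnd1, -1.80 in Ccl12, -1.75 in Rrm2 and -1.70 in Mmp9. Further differences below 0 were -1.69 in C1qb, -1.67 in Cd83, -1.65 in Gatm, -1.63 in Aif1, -1.60 in Glrx, -1.58 in Stab1, -1.46 in Ctla2a, -1.45 in Pltp, -1.45 in Slc7a8, -1.42 in Icam1, -1.38 in Mx2 and -1.35 in C1qc. Next came -1.34 in Rrm1, -1.22 in Uhrf1, -1.15 in Nlrp3, -1.11 in Cx3cr1, -1.09 in Tgfbi, -1.06 in Spred1, -1.0 in Il1b, -0.97 in Nlrp1b, -0.94 in Cdk6, -0.88 in Abca1, -0.88 in Idi1 and -0.86 in Mx1. Smaller ones were -0.85 in Tlr2, -0.78 in Cd40, -0.73 in Cers6, -0.71 in Nr1h3, -0.70 in Slc7a2, -0.69 in Ldha, -0.66 in Insig1, -0.64 in Pf4, -0.61 in Lpcat2, -0.60 in Psat1, -0.54 in Tfrc and -0.53 in Glb1. Others were -0.51 in Fos, -0.49 in Cd14, -0.47 in Hmox1, -0.45 in Plk2, -0.44 in Gpr84, -0.42 in Csf1r, -0.39 in Mcl1 and -0.36 in Bcl2l1. Above 0, the difference was 2.26 in Bex1, 2.07 in Clec4e, 1.96 in Cox6a2, 1.94 in Slc7a11, 1.90 in Chchd10, 1.82 in Cdkn1c, 1.78 in Fkbp11, 1.73 in Derl3, 1.63 in Nqo1, 1.53 in Pdia5, 1.42 in Gsta3 and 1.40 in Cd86. Further differences above 0 were 1.40 in Pdia4, 1.35 in Il1f9, 1.34 in Dnajb9, 1.32 in Slc27a6, 1.30 in Creld2, 1.19 in Sgms2, 1.14 in Acod1, 1.10 in Acss2, 1.09 in Clec4n, 1.03 in Sec24d, 0.98 in Hspa5 and 0.94 in Edem2. The others above 0 were 0.91 in Wars, 0.77 in Hspa4l, 0.75 in Spcs2, 0.70 in Cbr3, 0.69 in Mgst1, 0.63 in Cxcl2, 0.59 in Panx1, 0.57 in Cd3g, 0.52 in Sec31a and 0.51 in Eprs.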

How the results depend on the processing

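Of the genes given in the report, 126 passed the test and 7 did not. None of the 126 changed direction under the alternatives run for it, and in 2141 checks over these genes and alternatives 2109 kept the call and 32, in 11 genes, lost it; the fit of every probe set gave counts only. The count of risen genes was 813 when only the compared groups were fitted, against 1243. In that fit the spread rested on the SA arrays alone, and the cause of the lower count was not tested. Over all alternatives, risen genes numbered 813 to 1453 and fallen genes 995 to 1457. With the replicate number as a block, 1226 genes rose and 1310 fell (882 for OA and 997 for the difference between the acids), and not every SA array correlated best with its own number. Leaving out 1 array at a time gave 932 to 1267 risen and 1181 to 1267 fallen genes, 652 to 1056 for OA and 874 to 1026 for the difference between the acids.
List medians that moved by more than the spread between arrays were heat shock proteins at 0.17 with quantile normalization and 0.18 with array weights, mast cell markers at 0.04 with quantile normalization and -0.06 without dim genes, and housekeeping genes at -0.15 with the most variable probe set. With centring and without replicate 2 of 20 h SA, chosen after seeing the data, medians were 0.12 for fatty acid synthesis, 0.13 for PPAR targets, 0.11 for lipid droplets, -0.35 for glycolysis, 0.17 for heat shock proteins and -0.06 for housekeeping genes. Leaving out 1 array at a time gave medians of -0.78 to -0.65 for cytokines, 0.15 to 0.25 for NRF2 targets, 0.04 to 0.11 for fatty acid synthesis, 0.08 to 0.13 for PPAR targets, 0.08 to 0.13 for the lysosome, -0.44 to -0.36 for glycolysis, 0.09 to 0.16 for heat shock proteins and 0.06 to 0.17 for dendritic cell markers. The cause was not tested. Further counts of members that moved by over 1.5 times were 5 risen heat shock proteins with a variance trend, 14 risen lysosome genes with quantile normalization and 4 risen p53 targets with array weights. PPAR targets that fell numbered 2 with a variance trend or without dim genes and 1 with quantile normalization. Cxcr2 also lost its call with a variance trend, centring or quantile normalization (adjusted p = 0.0541 to 0.0664), and Bid with array weights (0.0522).
Precision is set by 4 arrays a group, and for genes near or below the array medians the size of a change is uncertain.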
